A study of Rattus norvegicus with 9 samples.

Results

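The 10 genes described here encode fibronectin (Fn1), elastin (Eln) and 8 proteins of the elastic fibre and its microfibrils: fibrillin-1 (Fbn1), the fibulins Fbln1, Fbln2 and Fbln5, fibulin-4 (Efemp2), the microfibril-associated proteins Mfap4 and Mfap5, and Emilin1. They were chosen by symbol from the array's probe table. Each of the 10 had exactly 1 row in the value table, and together they are 10 of the 14506 genes tested. Pancreatic stellate cells were isolated from the pancreas of male Sprague Dawley rats on a Nycodenz density gradient and grown for 72 hours in 10 cm dishes, in medium with 10% serum. The surface was a layer of Matrigel (2 arrays), a layer of collagen I (3 arrays) or bare plastic (4 arrays). Matrigel is a tumour-derived basement membrane extract, and collagen I is the fibrillar collagen of scar tissue. The labels give neither the number of animals nor the passage of the cells, so the p-values cover only the spread between these arrays, which may be technical.

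Elastic fibres form outside the cell. Elastin monomers are laid onto a scaffold of fibrillin microfibrils, fibulin-4 and fibulin-5 bring elastin together with lysyl oxidases, and those enzymes cross-link it into an insoluble core. Fibronectin is secreted as a dimer and is pulled into fibrils by integrin receptors under cell tension, and the fibrils in turn serve as a template for collagens, fibrillin and latent growth factor complexes. Stellate cells are the main matrix-producing cells of the injured pancreas.

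The arrays are whole-transcript Affymetrix arrays, and all levels are log2 expression values, so a difference of 1 is a doubling. Array medians lay between 4.08 and 4.18. All 10 genes stood above log2 4.25, the 40th percentile of gene means below which a level is called dim, on every array. The sample titles carry a letter (A, P, S or Z) that the labels do not explain: all 4 occur on plastic, A and S on Matrigel, and every letter but S on collagen I. Of the stellate cell markers, Col1a1 (12.45 to 12.95), Vim (12.09 to 12.68) and Pdgfrb (10.06 to 10.68) were bright on all arrays, Acta2 ranged over 8.95 to 11.33, Des over 4.83 to 6.89, and Gfap was dim throughout (2.45 to 2.90). Some markers of other cell types were bright on all arrays too. Of the islet markers, Ins1 ranged over 8.92 to 12.17, while Nkx6-1 was dim throughout. Of the macrophage markers, Cd14 ranged over 9.73 to 11.35 and Aif1 over 3.40 to 4.78.

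Between Matrigel and plastic, 4 of the 10 genes fell and 1 rose. The 4 that fell were Mfap5, Mfap4, Fbln2 and Fbln5, by between 2.44-fold (Mfap4) and 3.74-fold (Fbln2). Fn1 rose 1.27-fold. The other fibulins and microfibril genes, Fbn1 (0.10), Fbln1 (0.34), Emilin1 (0.48) and Efemp2 (-0.28, log2 differences), were not called. A call is an adjusted p under 0.05 from limma, adjusted over all genes tested, and 10.4% of all genes were called in this comparison, 4.52% higher and 5.85% lower on Matrigel. The median difference was -0.70 over the 10 genes and -0.01 over all genes. The former lies midway between Eln (-1.12) and Efemp2 (-0.28), which were not called. Without Matrigel replicate 1 these 2 differences were -0.07 and -0.06. All genes include those below the dim level, whereas the 10 genes lay above it. The genes were assembled with earlier results of these data known, so their share of calls is a description.

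The sequence just before the transcription start is shown for the 3 of these 4 falling genes that the promoter table holds, since each was called lower on Matrigel. Between collagen I and plastic Mfap5 was called lower, a call lost in 10 of 18 alternative fits, and Fbln5 and Fbln2 were not called. Whether these genes differed from each other there was not tested. Each sequence covers 250 bases before the start, from RefSeq on build GRCr8, on the strand of the gene and from 5′ to 3′. Capitals mark the GC box GGGCGG on either strand.
Mfap5 (chr4:157399669-157399918, plus strand): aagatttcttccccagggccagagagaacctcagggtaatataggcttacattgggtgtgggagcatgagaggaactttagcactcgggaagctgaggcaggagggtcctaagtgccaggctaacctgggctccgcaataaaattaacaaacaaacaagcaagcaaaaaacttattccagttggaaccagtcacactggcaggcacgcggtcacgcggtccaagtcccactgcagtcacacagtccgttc
Fbln5 (chr6:126742707-126742956, minus strand): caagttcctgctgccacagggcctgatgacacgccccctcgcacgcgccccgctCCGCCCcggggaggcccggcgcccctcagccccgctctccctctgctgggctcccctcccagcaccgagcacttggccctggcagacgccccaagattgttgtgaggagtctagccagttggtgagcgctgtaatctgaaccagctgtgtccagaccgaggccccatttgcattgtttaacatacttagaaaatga
Fbln2 (chr4:125261409-125261658, plus strand): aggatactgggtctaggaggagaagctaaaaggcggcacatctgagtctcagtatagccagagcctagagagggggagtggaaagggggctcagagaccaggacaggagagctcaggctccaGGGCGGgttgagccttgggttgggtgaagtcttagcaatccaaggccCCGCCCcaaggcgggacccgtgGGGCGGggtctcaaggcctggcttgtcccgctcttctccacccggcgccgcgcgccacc
The Fbln2 window held 3 GC boxes, the Fbln5 window 1 and the Mfap5 window 0, and 30.5% of all 33469 promoter windows of this length held at least 1. The other motifs searched on both strands were the TATA box TATAAA (in 12.9% of windows), the AP-1 site TGANTCA (6.34%) and the TEAD site GGAATG (12.1%), and these letters are in none of the 3 windows. GC content was 51.6% for Mfap5, 63.2% for Fbln5 and 64% for Fbln2, beside a median of 51.2% over all windows. Efemp2 and Fbn1 also have an entry, while Fn1, Eln, Fbln1, Mfap4 and Emilin1 have none.

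**Figure D1:**
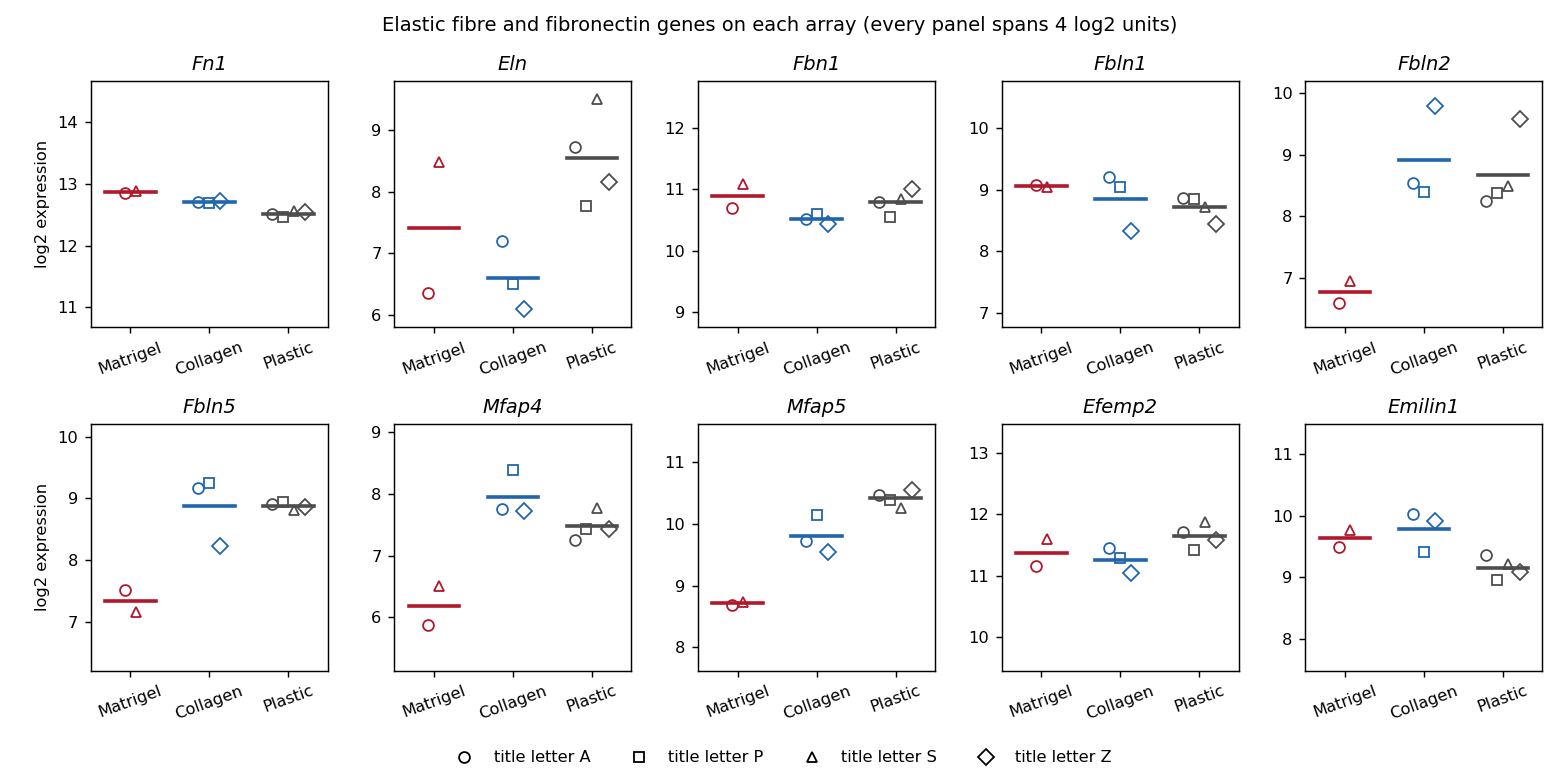
Log2 expression of the 10 genes on each of the 9 arrays, by culture surface; symbols give the letter in the sample title, horizontal bars the mean of a surface, and every panel spans 4 log2 units. Mfap5 on Matrigel (8.69 and 8.74) lies below all collagen and plastic arrays, whereas Eln spreads over 6.35 to 8.47 within Matrigel alone.

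Mfap5 (Entrez gene 362429) encodes a glycoprotein that binds fibrillin in microfibrils. Its level was 8.69 and 8.74 on Matrigel, 9.73, 10.14 and 9.55 on collagen I, and 10.47, 10.38, 10.25 and 10.55 on plastic. The 3 surfaces did not overlap. Against plastic the level was 1.70 ± 0.15 lower on Matrigel (log2 difference, SE), a 3.24-fold change (adjusted p = 0.000622), and among arrays of one letter it was 1.78 lower for A and 1.51 lower for S. Mfap5 passed under all 18 alternatives tried for this comparison (highest adjusted p = 0.00950).

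Fbln5 (Entrez gene 29158) encodes fibulin-5, which ties elastin to microfibrils and to integrins. It stood at 7.51 and 7.15 on Matrigel, at 9.16, 9.26 and 8.22 on collagen I, and at 8.90, 8.95, 8.82 and 8.85 on plastic. Both Matrigel arrays lay below the other 7, and the plastic arrays spanned only 0.13. The difference between Matrigel and plastic was -1.55 ± 0.26 (adjusted p = 0.00743). It missed the threshold without Matrigel replicate 2 (adjusted p = 0.0552).

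Mfap4 (Entrez gene 287382), a microfibril protein with a fibrinogen-like domain, had levels of 5.87 and 6.50 on Matrigel. On collagen I it had 7.75, 8.40 and 7.72, and on plastic 7.26, 7.43, 7.77 and 7.43. The Matrigel arrays were again the lowest, and the levels on plastic replicates 2 and 4 were identical as deposited. Mfap4 was lower on Matrigel than on plastic by 1.29 ± 0.24 (adjusted p = 0.0123), but the call was lost when Matrigel replicate 1 was left out (adjusted p = 0.0995).

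Fbln2 (Entrez gene 282583) encodes fibulin-2, which binds fibronectin, fibrillin and proteoglycans. Its level was 6.60 and 6.95 on Matrigel, 8.54, 8.40 and 9.79 on collagen I, and 8.25, 8.39, 8.49 and 9.58 on plastic. The arrays of letter Z were the highest on both surfaces that have one, more than 1 log2 unit above the other arrays of their surface. Fbln2 was 1.90 ± 0.46 lower on Matrigel than on plastic (adjusted p = 0.0333), and lower by 1.65 and 1.54 within letters A and S. This call was lost without either Matrigel array or any 1 of the 4 plastic arrays (adjusted p from 0.0501 to 0.178), and with array weights (adjusted p = 0.0606).

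Fn1 (Entrez gene 25661), the fibronectin gene, had a level of 12.85 and 12.88 on Matrigel. On collagen I it stood at 12.71, 12.69 and 12.73, and on plastic at 12.51, 12.46, 12.56 and 12.54. The surfaces did not overlap, and within each the arrays lay within 0.09 of each other. Fn1 was 0.35 ± 0.06 higher on Matrigel than on plastic (adjusted p = 0.00899), and it passed under all 18 alternatives (highest adjusted p = 0.0422). These levels are close to the top of the scale, since the highest value on any array was 13.83.

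Eln (Entrez gene 25043), which encodes the elastic core protein, varied more between replicates than any other of the 10 genes on Matrigel and on plastic. Its level was 6.35 and 8.47 on Matrigel, 7.20, 6.51 and 6.09 on collagen I, and 8.73, 7.76, 9.50 and 8.16 on plastic. The Matrigel arrays overlapped both other surfaces, whereas all collagen arrays lay below all plastic arrays. The difference between Matrigel and plastic was -1.12 with a 95% confidence interval from -2.57 to 0.32 (adjusted p = 0.335). It was -0.07 without Matrigel replicate 1 and -2.18 without Matrigel replicate 2, and neither passed. Within letter A the difference was -2.37 and within letter S -1.03.

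Efemp2 (Entrez gene 293677) encodes fibulin-4, which brings lysyl oxidase to elastin. It stood at 11.15 and 11.59 on Matrigel, at 11.45, 11.28 and 11.04 on collagen I, and at 11.71, 11.42, 11.88 and 11.58 on plastic. Within each surface the arrays had the same order as for Eln (S above A on Matrigel, A above P above Z on collagen I, and S above A above Z above P on plastic), and no other of the 10 genes had that order on every surface. The Efemp2 level spanned 0.83 over the 9 arrays and the Eln level 3.41. The difference between Matrigel and plastic was -0.28 ± 0.17 for Efemp2 (adjusted p = 0.383).

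**Figure D2:**
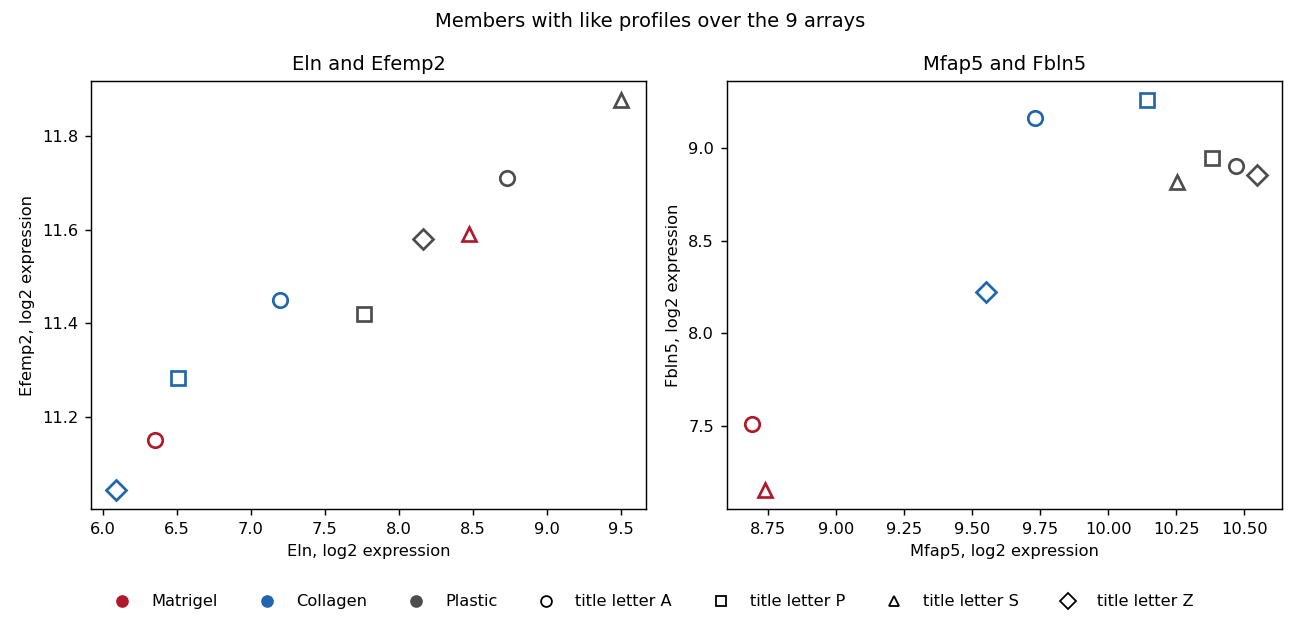
Log2 expression on each of the 9 arrays for Eln against Efemp2 (left) and Mfap5 against Fbln5 (right); colours give the surface and symbols the letter in the sample title. Eln and Efemp2 are high on the same arrays within each surface, while in the right panel the 2 Matrigel arrays lie apart from the other 7 in both genes.

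Fbn1 and Emilin1 belong to the microfibril and its boundary with elastin. Fbn1 (Entrez gene 83727), whose product fibrillin-1 is the backbone of microfibrils, had levels of 10.70 and 11.08 on Matrigel, 10.51, 10.60 and 10.43 on collagen I, and 10.79, 10.55, 10.84 and 11.00 on plastic. The Matrigel and plastic arrays overlapped, and the difference was 0.10 with an interval from -0.22 to 0.42 (adjusted p = 0.754). Emilin1 (Entrez gene 298845), which encodes a glycoprotein at the interface of elastin and microfibrils, had levels of 9.49 and 9.77 on Matrigel, 10.02, 9.42 and 9.91 on collagen I, and 9.36, 8.95, 9.22 and 9.09 on plastic. Every Matrigel and collagen array exceeded every plastic array, but the Emilin1 difference of 0.48 ± 0.18 between Matrigel and plastic did not pass (adjusted p = 0.148).

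Fbln1 (Entrez gene 315191) encodes fibulin-1, a partner of fibronectin. Its level was 9.08 and 9.04 on Matrigel, 9.21, 9.04 and 8.32 on collagen I, and 8.87, 8.85, 8.71 and 8.44 on plastic. The letter Z arrays were the lowest on collagen I and on plastic, the reverse of Fbln2. The difference between Matrigel and plastic was 0.34 with an interval from -0.18 to 0.86 (adjusted p = 0.432).

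**Figure D3:**
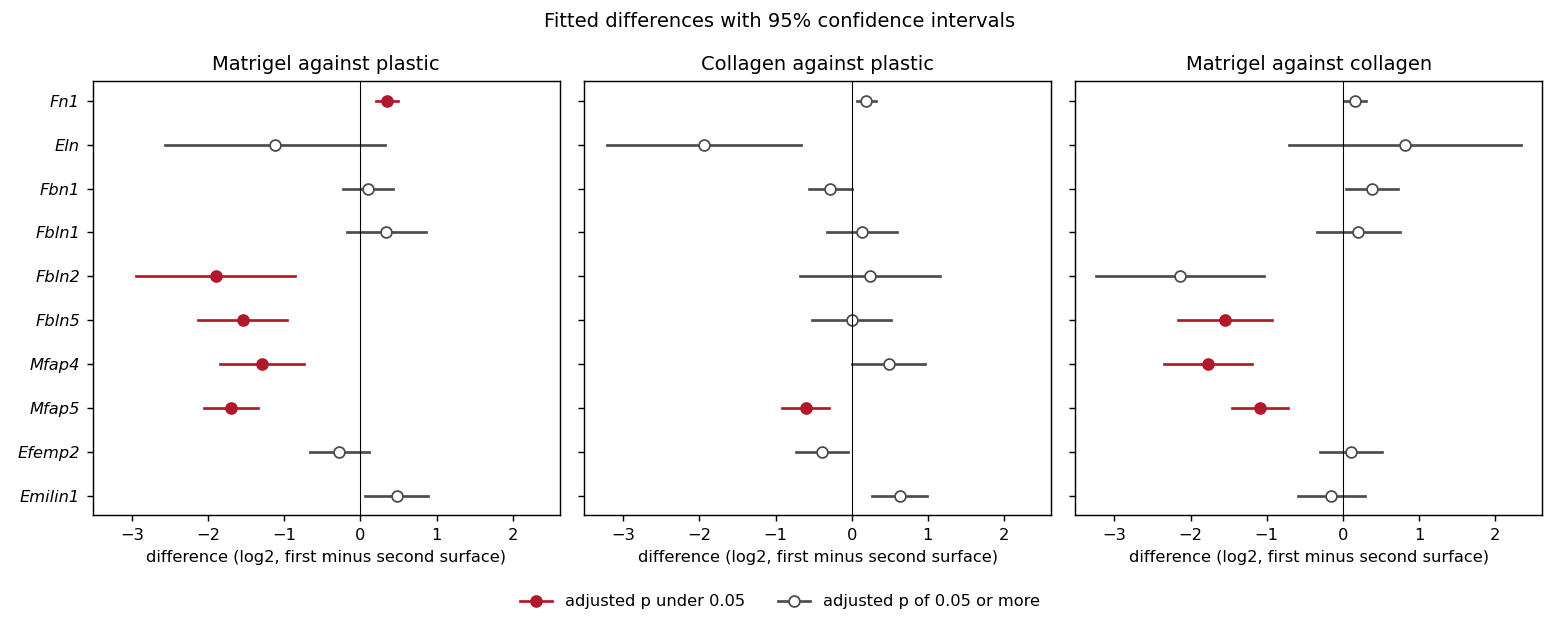
Fitted differences of the 10 genes (log2, points) with 95% confidence intervals (lines) for the 3 comparisons; filled red points have an adjusted p under 0.05 and open points do not. Mfap5 is called lower in all 3 panels, and the Eln interval between Matrigel and plastic runs from -2.57 to 0.32.

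Between collagen I and plastic, Mfap5 was the only one of the 10 genes called, and it fell. In this comparison 6.12% of all genes were called, 2.95% higher and 3.17% lower on collagen I. Mfap5 was 0.61 ± 0.14 lower (1.52-fold, adjusted p = 0.0346) and lower within each of the letters A, P and Z, by between 0.24 and 1.00. With the title letter as a fixed block, which pairs the arrays of these 2 surfaces, the Mfap5 difference was -0.64 and did not pass (adjusted p = 0.0585), while as a random block the letter left it called, at -0.61 (adjusted p = 0.0243). It also missed the threshold in 9 other alternatives (adjusted p from 0.0542 to 0.110), 7 of which left out 1 array: a Matrigel array, any collagen array but the second, or any plastic array but the third.

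Eln and Emilin1 did not overlap between collagen I and plastic and came close to a call in opposite directions. The Eln difference was -1.94 ± 0.56 (adjusted p = 0.0907), and it was negative within all 3 letters. With the letter as a fixed block it was -1.49 and passed (adjusted p = 0.0323), but with the letter as random it was -1.84 and did not (adjusted p = 0.0682). The Emilin1 difference was 0.63 ± 0.16 (adjusted p = 0.0581) and was positive within all 3 letters. Emilin1 passed with both forms of the block, at 0.69 (fixed, adjusted p = 0.0200) and 0.64 (random, adjusted p = 0.0324). The Fn1 difference of 0.19 ± 0.05 did not pass (adjusted p = 0.0823), although its collagen arrays all exceeded its plastic arrays.

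The other 3 genes that fell on Matrigel were not called between collagen I and plastic. Fbln5 differed by 0.00 (interval -0.52 to 0.52), Fbln2 by 0.24 (-0.68 to 1.16) and Mfap4 by 0.48 (just under 0 up to 0.97). Fbn1, Efemp2 and Fbln1 differed by -0.28, -0.39 and 0.14, with adjusted p from 0.200 to 0.787. The comparisons of Matrigel and of collagen I with plastic share the plastic arrays, so the direct comparison of the 2 coatings is the test of their difference.

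Between Matrigel and collagen I, Mfap4, Fbln5 and Mfap5 were called, and all 3 were lower on Matrigel. Calls made up 2.67% of all genes here, 1.21% higher and 1.45% lower on Matrigel. The difference was -1.77 ± 0.25 for Mfap4 (3.42-fold, adjusted p = 0.0145), -1.55 ± 0.27 for Fbln5 (2.93-fold, adjusted p = 0.0273) and -1.09 ± 0.16 for Mfap5 (2.13-fold, adjusted p = 0.0153). Fbln2 had the largest fitted difference of the 10 genes, -2.14 ± 0.48, and did not pass (adjusted p = 0.0589). The Fn1 level was 0.16 ± 0.06 higher on Matrigel, which did not pass (adjusted p = 0.253). Eln, Fbn1, Fbln1, Efemp2 and Emilin1 did not pass either, with adjusted p from 0.243 to 0.819.

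These calls between the coatings depended on single arrays. Without Matrigel replicate 1 none of the 3 genes passed (adjusted p = 0.0634 for Mfap4, 0.0704 for Fbln5 and 0.0698 for Mfap5). Without Matrigel replicate 2 Mfap4 passed, and Fbln5 and Mfap5 did not (adjusted p = 0.117 and 0.0567). Leaving out the first or second collagen array, or any plastic array but the third, also cost Fbln5 its call (adjusted p from 0.0516 to 0.0862). Fbln2 passed without plastic replicate 4 (adjusted p = 0.0468). With only the arrays of these 2 surfaces in the fit, limma called 0 genes of the whole table, and 2094 had an unadjusted p under 0.05.

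The order of the surfaces differed among the 10 genes. Fbln2, Fbln5 and Mfap4 had their highest mean on collagen I and their lowest on Matrigel, Mfap5 its highest on plastic and its lowest on Matrigel, and Eln and Efemp2 their highest on plastic and their lowest on collagen I. Fn1 and Fbln1 ran from Matrigel down through collagen I to plastic, Fbn1 was highest on Matrigel and lowest on collagen I, and Emilin1 was highest on collagen I and lowest on plastic. Of the neighbours in these orders, only Mfap5 was called at both steps, Fbln5 and Mfap4 at the step between Matrigel and plastic, as was Fbln2. The distance between the highest and the lowest surface mean had a median of 1.09 over the 10 genes and 0.20 over all genes. These medians are a description, since all genes include those below the dim level and the 10 genes were assembled with earlier results known.

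Likeness to Fn1 and to Eln was measured over the 9 arrays as the root mean square distance between levels centred and scaled to each gene's own SD. The nearest genes to Fn1, among 8703 above the dim level, were the transcription factor gene Mafg (0.14), Atpsckmt (0.14) and the lipid droplet gene Plin2 (0.18). Of the other 9 genes, Emilin1 was nearest to Fn1, at rank 749. Nearest to Eln were the aminopeptidase gene Xpnpep2 (0.13), the sialyltransferase gene St6galnac2 (0.17) and Cyria (0.18). Efemp2 followed at rank 11 with a distance of 0.21, and Fbn1 at rank 922. These distances describe the same 9 arrays and carry no test.

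Genes that act with these proteins were grouped in 5 lists. In the list of lysyl oxidases and elastin cross-linking, 5 of 9 genes fell on Matrigel against plastic and 2 rose, with a median difference of -0.47. The calls made up 77.8% of the list, beside 10.4% of all genes. All 5 that fell were lysyl oxidase genes, whose products cross-link elastin and collagen. Loxl3 fell by 0.85 ± 0.08 (adjusted p = 0.000643) and Loxl1 by 1.72 ± 0.33 (adjusted p = 0.0139). Loxl2, Lox and Loxl4, named after their values were seen, fell by 0.71, 0.47 and 0.74 (adjusted p = 0.0247, 0.0342 and 0.0448). Furin, a protease that trims profibrillin, rose by 0.90 ± 0.13 (adjusted p = 0.00409), and Atp7a, which supplies copper to lysyl oxidase, by 0.45 ± 0.09 (adjusted p = 0.0144). With any 1 array left out, at most 4 of the 5 oxidases passed. Fewer did when either Matrigel array, the second collagen array or any plastic array but the third was left out. Loxl3 passed under all 18 alternatives, while Loxl4 lost its call in 13 of them. The Loxl4 levels on Matrigel, 4.36 and 4.25, were close to the dim level of 4.25. Atp7a did not pass without either Matrigel array (adjusted p = 0.0794 and 0.0598). Against plastic on collagen I, only Furin passed in this list (0.66 ± 0.12, adjusted p = 0.0118). That is 11.1% of the list, beside 6.12% of all genes.

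Of 13 measured microfibril and elastic fibre partners, 3 rose and 1 fell on Matrigel against plastic, with a median difference of 0.07. The calls made up 30.8% of the list, beside 10.4% of all genes. Ltbp1 and Ltbp3 encode proteins that bind latent TGF-beta and link it to the matrix, whereas the related Ltbp2 protein binds fibrillin but not latent TGF-beta. Ltbp1 fell by 1.11 ± 0.11 (adjusted p = 0.000984), while Ltbp3 rose by 0.97 ± 0.17 (adjusted p = 0.00811) and Ltbp2 by 0.80 ± 0.19 (adjusted p = 0.0324). The versican gene Vcan rose by 0.60 ± 0.10 (adjusted p = 0.00645). On collagen I, 3 rose and 2 fell (38.5% of the list, beside 6.12% of all genes). Ltbp2 rose by 1.23 ± 0.17, Vcan by 0.49 ± 0.09 and Ltbp3 by 0.64 ± 0.15, with adjusted p = 0.00381, 0.0118 and 0.0379. Ltbp1 fell by 0.55 ± 0.10 and Efemp1, the fibulin-3 gene, by 2.06 ± 0.39, with adjusted p = 0.0131 and 0.0156. Vcan passed under all 18 alternatives in both comparisons. Without Matrigel replicate 1 the adjusted p of Ltbp2 on Matrigel was 0.213, and it was 0.0504 to 0.0828 without plastic replicate 1 or 2 or any 1 of the collagen arrays. Ltbp3 on Matrigel was lost without Matrigel replicate 2 (adjusted p = 0.0557), and on collagen I in 8 of 9 fits that left out an array, plastic replicate 3 being the exception (adjusted p from 0.0575 to 0.129). Without collagen replicate 3 neither Ltbp1 nor Efemp1 passed on collagen I (adjusted p = 0.0543 and 0.0672), nor did Ltbp1 without collagen replicate 2 (0.0576) or Efemp1 without plastic replicate 1 (0.0567).

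Of 10 measured fibronectin receptors, 1 rose and 1 fell on Matrigel against plastic, with a median difference of 0.09. The calls made up 20% of the list, beside 10.4% of all genes. Itga5 and Itgb1 encode the 2 chains of the main fibronectin receptor, integrin alpha-5 beta-1, and moved in opposite directions. Itga5 rose by 1.30 ± 0.26 (adjusted p = 0.0151) and Itgb1 fell by 0.43 ± 0.07 (adjusted p = 0.00645) on Matrigel. On collagen I, Itga5 rose by 1.40 ± 0.23 (adjusted p = 0.00812), Itgb1 fell by 0.27 ± 0.06 (adjusted p = 0.0379) and Itgb8 fell by 1.53 ± 0.34 (adjusted p = 0.0321). They are 30% of the list, beside 6.12% of all genes. Itga5 on Matrigel was lost without Matrigel replicate 1 (adjusted p = 0.123). On collagen I, Itgb1 was lost without any 1 collagen or plastic array, and Itgb8 when any collagen array but the first or any plastic array but the fourth was left out (adjusted p from 0.0583 to 0.118 over both genes). Itgb1 on collagen I was also lost with the letter as a block (adjusted p = 0.107), with re-centred arrays (0.0891) and with a second quantile normalization (0.136).

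In the list of fibronectin fibril assembly and partners, 6 of 16 measured genes fell on Matrigel against plastic and 0 rose, with a median difference of -0.34. The calls made up 37.5% of the list, beside 10.4% of all genes. Igfbp3, whose product binds insulin-like growth factors and fibronectin, fell by 2.28 ± 0.20 (adjusted p = 0.000553). The integrin adaptor genes Parva and Fermt2 fell by 0.55 ± 0.08 and 0.69 ± 0.13 (adjusted p = 0.00342 and 0.0134), and the secreted glycoprotein gene Fstl1 by 0.54 ± 0.08 (adjusted p = 0.00521). Tgm2, a transglutaminase gene, fell by 2.43 ± 0.52 (adjusted p = 0.0200), a call lost when the first Matrigel or the first plastic array was left out (0.156 and 0.0527). Dpp4 was dim on Matrigel and at least 0.24 lower there (adjusted p = 0.0492), and it kept its call only when the third or the fourth plastic array was the one left out. On collagen I 3 fell and 1 rose (25% of the list, beside 6.12% of all genes). Igfbp3 fell by 1.76 ± 0.17 and Tgm2 by 2.88 ± 0.46 (adjusted p = 0.000801 and 0.00740). Dpp4 was called lower and was dim on collagen I, and the periostin gene Postn rose by 2.29 ± 0.38 (adjusted p = 0.00962). Fermt2 on Matrigel lost its call when the second Matrigel array was left out (adjusted p = 0.0863), and Dpp4 on collagen I lost its call when any coated array or the first or second plastic array was left out (adjusted p from 0.0562 to 0.131) and with the letter as a block (0.0617).

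Among 17 measured elastin-degrading proteases and inhibitors, 2 rose on Matrigel against plastic and 0 fell, with a median difference of 0.21. That is 11.8% of the list, close to the 10.4% called among all genes. The gelatinase gene Mmp9 rose by 3.11 ± 0.53 (adjusted p = 0.00825) and Slpi, an inhibitor of neutrophil elastase, by 2.30 ± 0.50 (adjusted p = 0.0218). On collagen I, Mmp9 rose by 2.34 ± 0.47 (adjusted p = 0.0211) and the membrane-type protease gene Mmp14 by 1.29 ± 0.19 (adjusted p = 0.00510). They are 11.8% of the list, beside 6.12% of all genes. Neither Mmp9 nor Slpi passed on Matrigel without Matrigel replicate 1 (adjusted p = 0.0773 and 0.0794), nor Slpi without Matrigel replicate 2 (0.123). On collagen I, Mmp9 lost its call when the second collagen array or any plastic array but the third was left out (adjusted p from 0.0578 to 0.0668). Without plastic replicate 3, 5 genes of this list rose on Matrigel.

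**Figure D4:**
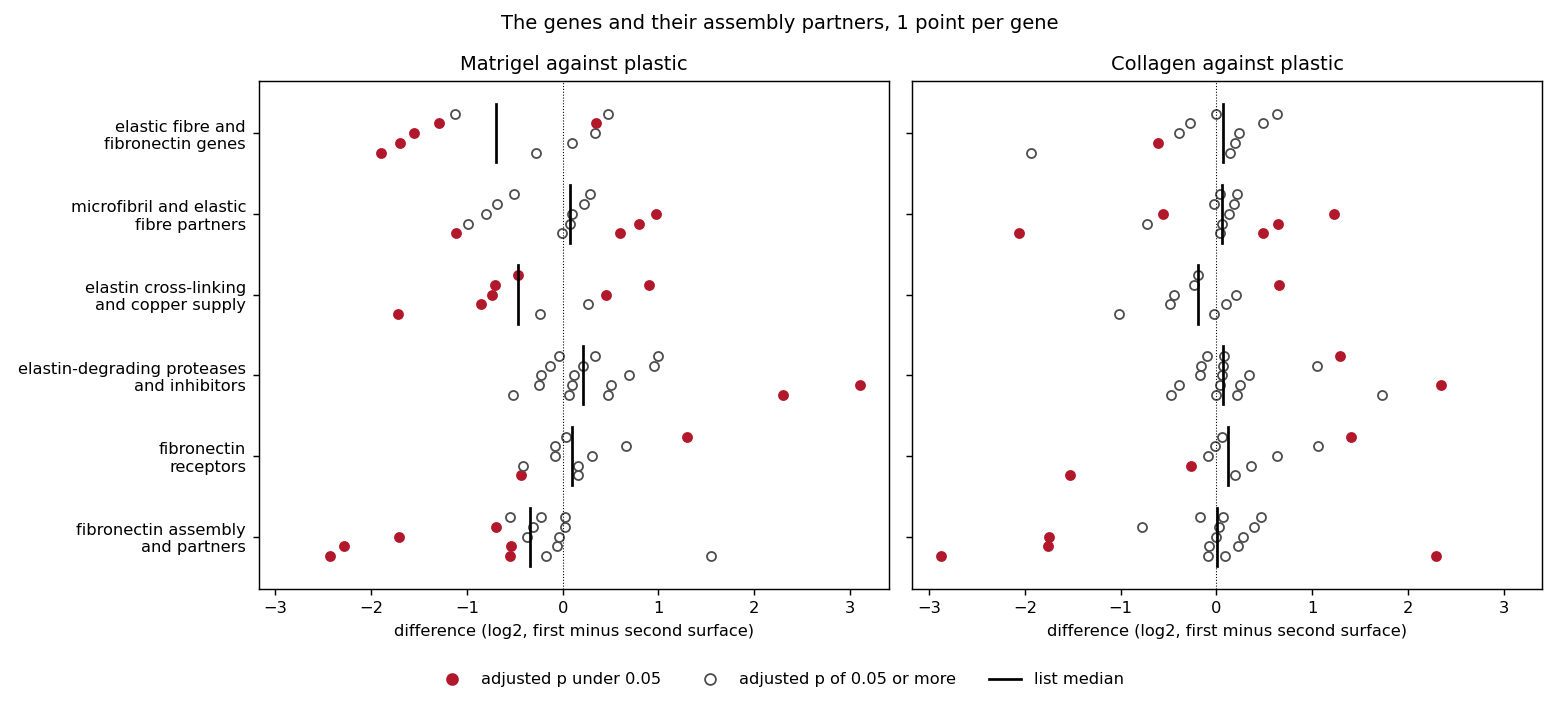
Fitted differences (log2) against plastic on Matrigel (left) and on collagen I (right), 1 point per gene, for the 10 genes and the 5 lists of partners; filled red points have an adjusted p under 0.05, and black bars are list medians. On Matrigel the median of the 10 genes is -0.70, midway between the uncalled Eln and Efemp2, and that of the cross-linking list is -0.47. The fitted differences of Dpp4 are drawn although its coated means and some of its plastic arrays are dim.

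Between the coatings, 7 of the 65 genes tested in the 5 lists were called (10.8%, beside 2.67% of all genes), all 7 lower on Matrigel than on collagen I (1.45% of all genes were called lower). They were Loxl3 (-0.62), Lox (-0.67), Fermt2 (-0.78), Fstl1 (-0.46), Parva (-0.38), the syndecan gene Sdc2 (-0.60) and Ltbp1 (-0.56), with adjusted p from 0.0138 to 0.0493. Each of the 7 lost its call with at least 1 array left out, Loxl3 only without collagen replicate 2 (adjusted p = 0.0501). Without collagen replicate 2 only 68 genes of the whole table passed between the coatings.

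Mean levels of several cell type marker lists differed on Matrigel. The share of markers called against plastic was 12.5% for macrophage, 14.3% for acinar and 53.3% for islet markers. It was 33.3% for smooth muscle and 26.7% for stellate cell markers. Over all genes 10.4% were called, and the macrophage and acinar shares were close to that. Called or not, all 16 macrophage and all 14 acinar markers were higher on Matrigel than on plastic, with median differences of 1.07 and 0.40. Of the 15 islet markers 14 were higher (median 1.52). All 9 smooth muscle markers (median -0.84) and 11 of the 15 stellate cell markers (median -0.36) were lower. The mean level of 16 macrophage markers lay between 7.66 and 7.86 on the Matrigel arrays, 6.40 and 7.35 on the collagen arrays, and 6.32 and 7.31 on the plastic arrays, and 2 of them (Laptm5 and Itgam) rose against plastic. For 15 islet markers these ranges were 6.04 to 7.10, 5.03 to 5.59, and 4.82 to 5.58, and 8 rose. For 14 acinar markers they were 3.86 to 4.60, 3.26 to 3.63, and 3.26 to 3.48, and 2 rose (Ctrb1 and Cpa1), while 7 were dim on all 9 arrays. The 9 smooth muscle markers had means of 4.79 to 4.86 on Matrigel, 5.69 to 6.21 on collagen I and 5.63 to 6.33 on plastic, and 3 of them (Des, Tagln and Lmod1) fell. In that list Myh11 and Myocd, which define mature smooth muscle, were dim on all arrays. The 15 stellate cell markers averaged 8.85 to 9.04, 9.38 to 9.54, and 9.42 to 9.64 in the same order of surfaces, and 4 (Des, Thy1, Lum and Col3a1) fell on Matrigel. The part of these shifts in the results for the 10 genes was not tested, and in a mixed culture fewer cells of a type and less RNA per cell cannot be told apart. Of 9 duct, 11 endothelial and 7 mesothelial markers, 1 rose (Spp1), 1 rose and 1 fell (Tie1 and Egfl7), and 1 fell (Wt1). These calls were 11.1%, 18.2% and 14.3% of their lists. On collagen I against plastic, 0 of the macrophage, islet, acinar and endothelial markers were called, and the calls in the other lists were Des and Wt1 lower and Spp1 and Postn higher. Over all genes 6.12% were called there. Between Matrigel and collagen I, Des, Tagln and Thy1 were called lower on Matrigel. Ctrb1, Cpa1, Scg2, Scg3, Slc2a2 and Tie1 were called higher. These calls were 22.2% of the smooth muscle and 13.3% of the stellate cell markers. Of the acinar, islet and endothelial markers they were 14.3%, 20% and 9.09%, beside 2.67% of all genes. Of the macrophage, duct and mesothelial markers 0 were called. Cpa1, Scg3 and Slc2a2 were dim on collagen I, and Tagln on Matrigel.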

How the data were processed

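Expression was measured on 9 Affymetrix Rat Gene 1.0 ST arrays of stellate cells on Matrigel, collagen I or plastic. The deposited values are log2 expression values that the authors made with RMA, per the submitters' processing notes. RMA corrects background, quantile-normalizes across arrays and summarizes each probe set, which can shrink differences of very bright or dim genes. The software, its version and the build behind them were not given in the sources used here. Nothing was normalized again.

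Of 29215 rows, 15310 carried 1 gene symbol in the array's probe table, 323 several and 13582 none. The row with the highest mean over the 9 arrays was kept per gene, which left 14506 genes. Values tied exactly on at least 2 arrays for 8192 genes.

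The fit used limma 3.58.1 (R 4.3.3) on all 9 arrays, estimating a mean for each of the 3 surfaces with 6 residual degrees of freedom. It was moderated by empirical Bayes and adjusted by Benjamini-Hochberg over the 14506 genes within each comparison. The fit was tested on simulated data. The number of arrays limits the precision. A difference from a dim mean is printed as the distance to log2 4.25.

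The genes, lists and alternatives were chosen with earlier results of these data known. The naming rule took all 10 genes, up to 4 called genes per partner list and comparison by smallest p, the 3 genes most like Fn1 and Eln, and 6 stellate cell markers. Further called genes of those lists, called cell type markers, and some bright or dim cell type markers are named besides.

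For each title letter shared by a collagen and a plastic array, the deviations of the pair from their surface means had r = 0.196 (A), 0.234 (P) and 0.269 (Z) over all genes. Pairs of unlike letters had r from -0.243 to 0.243, the highest for collagen A with plastic S. These values do not separate shared from unshared letters, so reading the letters as pairs for that comparison is an assumption. For Matrigel and plastic the values for shared letters were -0.131 for A and 0.406 for S, and Matrigel and collagen share only letter A. With 2 Matrigel arrays the deviations of 1 are the exact reverse of the other's, so these values cannot test each letter.

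The 18 alternatives were re-centred arrays, a second quantile normalization, only genes above the dim level, every row of the value table, only the compared surfaces, trended and robust moderation, array weights, blocking on the letter (fixed, then random), and each of the 9 arrays left out.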

Additional observations from a re-analysis of the deposited data

How the results depend on the processing

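The 30 differences of the 10 genes were recomputed under 18 alternatives, 9 of which left out an array. Of 540 values, 475 kept their direction and their side of the threshold, 34 lost a call, 17 gained one and 14 changed sign, none of them called. The cause of the sign changes was not tested, and they included Eln between Matrigel and collagen I, whose difference was 0.82. When each array was left out in turn, Fbn1 between Matrigel and plastic ranged over -0.093 to 0.29. Between collagen I and plastic, Fbln1 ranged over -0.038 to 0.40, Fbln2 over -0.21 to 0.54 and Fbln5 over -0.19 to 0.33. Between Matrigel and collagen I, Eln ranged over -0.24 to 1.87, Fbln1 over -0.066 to 0.38 and Efemp2 over -0.11 to 0.33. With the title letter as a fixed replicate block, Fbln5 was -0.033 between collagen I and plastic, and Eln and Efemp2 were -0.29 and -0.17 between Matrigel and collagen I. As a random replicate block the letter gave -0.0094 for Fbln5.

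With the replicate block, Eln between Matrigel and plastic was -1.78 and passed (adjusted p = 0.0270), and between Matrigel and collagen I Fbln2 passed (adjusted p = 0.00924) while Fbln5 and Mfap5 did not (0.0722 and 0.104). Eln passed between collagen I and plastic in 4 alternatives, Emilin1 in 7 and Fn1 in 1. Of the 10 genes, the number called higher on collagen I than on plastic was 0, and it was 1 with re-centred arrays, with quantile normalization again, with only genes above the dim level and with the letter as fixed or random block. It was 2 with trend and robust moderation, and 0 to 1 with an array left out. The number called lower was 1, became 0 with every row of the value table tested, and was 0 to 1 with an array left out. The number lower on Matrigel was 4 against plastic (2 to 4 with an array left out) and 3 against collagen I (0 with only these surfaces in the fit, 0 to 3 with an array left out).

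Over all genes, 1504 were called between Matrigel and plastic (759 to 1461 with an array left out, lowest without Matrigel replicate 1, and 989 without plastic replicate 1) and 888 between collagen I and plastic (552 to 870, lowest without plastic replicate 1, and 555 without collagen replicate 2). Between Matrigel and collagen I it was 387, against 68 to 352 with an array left out, 257 with array weights, 66 with the replicate block and 0 with only these surfaces. Re-centring moved the share of calls that were higher by under 10 points in each comparison, to 45.6%, 54.8% and 38.6%, against 43.6%, 48.2% and 45.5%. A second quantile normalization turned the balance between Matrigel and plastic to 773 higher and 692 lower (52.8% higher), against 655 and 849. The balance between collagen I and plastic, 428 higher and 460 lower, turned under both alternatives. It was 484 and 399 with re-centring, and 494 and 430 with the second quantile normalization.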
